A study of Mus musculus with 6 samples.

Results

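The endoplasmic reticulum genes described here are 34 genes for chaperones, folding enzymes, degradation factors and stress signalling, taken as a list of gene symbols. Every probe set whose platform annotation gives 1 symbol from that list was used, which gave 75 of 22626 probe sets and all 34 genes. They were measured in mammary tumours of female F1 mice on 6 Affymetrix arrays, 1 per tumour sample. In 3 samples the parents were AKR/J and PyMT mice (AKR F1 tumours), and in the other 3 samples they were DBA/2J and PyMT mice (DBA F1 tumours). Both crosses thus had a PyMT parent, which brings the polyomavirus middle T antigen that drives mammary tumours. The promoter of the transgene and the age of the adult mice are not given in the sources used here. The question was which basal expression levels depend on the cross. Whether the samples of a cross are from different animals is not stated, so the p-values cover the spread among these samples, which may be technical, and 3 arrays per cross limit the precision.

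Secreted and membrane proteins enter the endoplasmic reticulum through the Sec61 channel and are folded there by chaperones and disulphide isomerases, while proteins that fail to fold are returned to the cytosol and degraded. When unfolded proteins accumulate, the sensors IRE1, PERK and ATF6 start the unfolded protein response, in which spliced XBP1 and cleaved ATF6 raise chaperone and degradation genes and ATF4 raises genes of amino acid supply and of cell death. Mammary epithelium that makes milk depends on this machinery for its secretory load.

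The arrays had medians of 7.52 to 7.57 on the log2 scale of the deposited values. Of 11 luminal epithelial markers, 9 lay above the median of every array, at 9.71 or higher, such as Epcam with 13.14, 12.94 and 13.17 in AKR F1 tumours, against 13.09, 12.78 and 12.96 in DBA F1 tumours. The other 2, Esr1 (5.39 to 6.49) and Foxa1 (5.98 to 7.63), were low. AKR replicate 2 stood apart, with the smallest SD of all values (1.76, against 1.90 to 2.02 on the others) and high salivary gland markers such as the amylase gene Amy1 (11.72, against 4.15 to 7.60 on the others). The mean of 7 salivary markers was 8.31, 10.90 and 7.72 on the AKR arrays, against 8.65, 7.28 and 8.26 on the DBA arrays. Amy1, Prol1, Dcpp1, Lpo and Pip were highest on AKR replicate 2. Bhlha15 was highest on DBA replicate 1, and Aqp5 was lowest on AKR replicate 2. Skeletal muscle markers (10 of 10 measured) had means of 8.60, 8.33 and 9.87 on the AKR arrays, against 11.50, 6.21 and 6.22 on the DBA arrays. The median difference between the crosses also depended on the level: it was 0.23 in decile 3 of all probe sets by mean value, and -0.21 in decile 10. Of the 34 genes, 27 lay in deciles 9 and 10, where 73.2% of all probe sets were higher in DBA F1 tumours.

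Chaperones of the HSP70 and HSP90 system, grouped with cofactors and the isomerase-like Creld2, lay lower in AKR F1 than in DBA F1 tumours in 7 of 9 genes. Their median log2 difference (AKR minus DBA) was -0.41, and -0.16 after quantile normalization. In deciles 9 and 10, which hold all of them but Creld2, 73.2% of all probe sets lay in that direction. Hsp90b1, which encodes the chaperone GRP94, differed most among the 34 genes at their brightest probe sets and was 2.39-fold higher in DBA F1 tumours. Among genes that lay higher in AKR F1 tumours, the chaperone cofactor gene Sdf2l1 was 1.55-fold higher, the glutathione-degrading enzyme gene Chac1 1.54-fold, and Syvn1, the ubiquitin ligase of the degradation pathway, 1.37-fold. The transcription factor gene Xbp1 differed by 0.023 on the log2 scale. None of these differences passed the test over all probe sets.

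By limma, with Benjamini-Hochberg adjustment over all 22626 probe sets, 0 of the 75 probe sets had an adjusted p under 0.05, where 0.0972% of all probe sets did. At a threshold of 0.10 there was 1, the brightest probe set of Hsp90b1 (adjusted p = 0.0934), against 3.58% of all. Without adjustment, 10 of the 75 had a p under 0.05 with AKR F1 tumours higher and 11 with DBA F1 tumours higher, which is 13.3% and 14.7% of the 75, against 12.9% and 13.2% of all probe sets. The values of the crosses did not overlap in 15 probe sets that were higher in AKR F1 tumours (20.0%, against 23.4% of all) and in 16 that were higher in DBA F1 tumours (21.3%, against 15.8% of all). As a whole, the 75 probe sets were therefore near the share of all probe sets in each of these counts. That share is over all levels, while 39 of the 75 lay in deciles 9 and 10. There, 7.29% of all probe sets did not overlap with AKR F1 tumours higher, and 29.8% with DBA F1 tumours higher. Their median difference was -0.068, that of the 34 genes at their brightest probe sets was -0.14, and that of all probe sets was 0.049. Without AKR replicate 2 the median was 0.065 for the 75 probe sets and -0.011 for the 34 genes, and without DBA replicate 2 it was -0.14 and -0.22. Array weights in limma gave AKR replicate 2 a weight of 0.192 and the others 0.683 to 2.80. With them, 12 of the 75 passed an adjusted p of 0.05, against 16.4% of all probe sets. Those of Chac1, Hyou1, Pdia4, Sdf2l1, Syvn1 and Sec61a1 were higher in AKR F1 tumours. Those of Herpud1, Hsp90b1, Hspa5 and Ssr1 were lower.

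**Figure D1:**
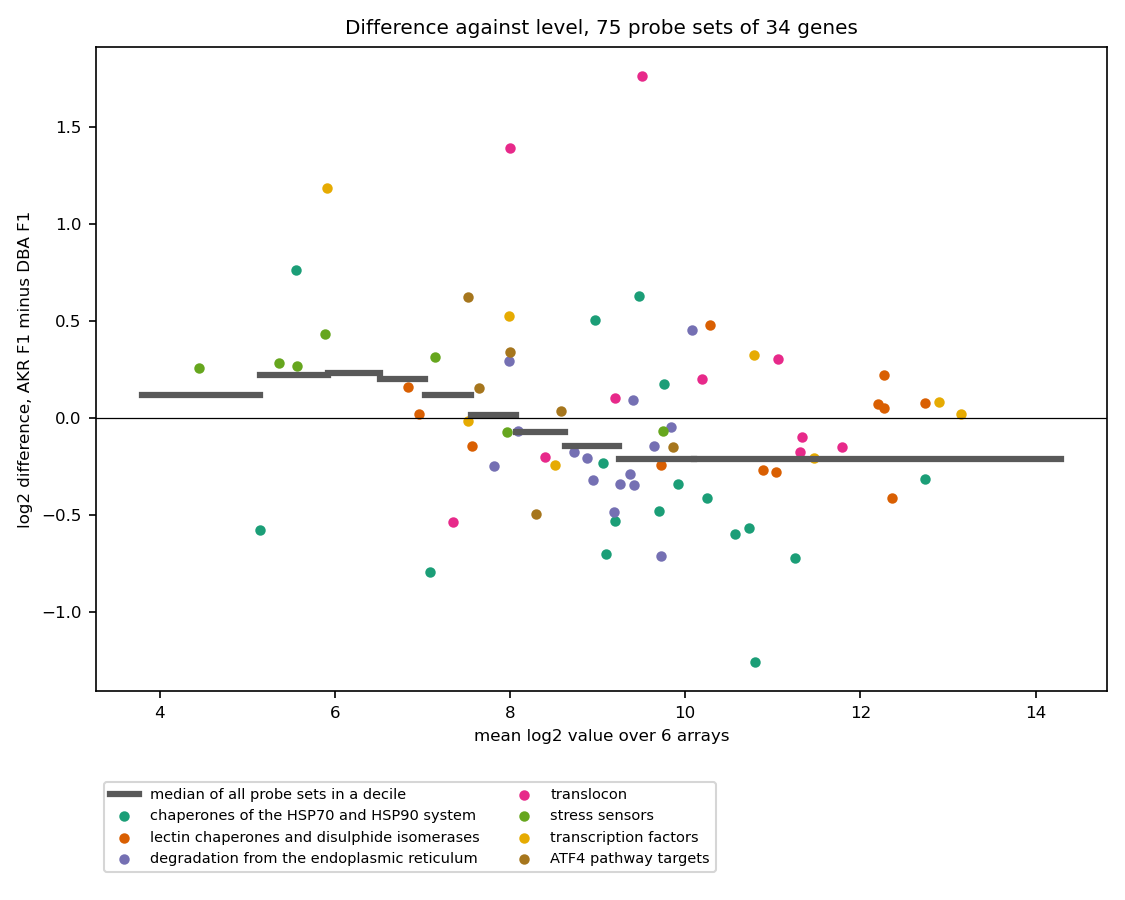
Log2 difference (AKR F1 minus DBA F1) of the 75 probe sets against their mean log2 value over 6 arrays, coloured by role. Grey bars are the medians of all 22626 probe sets by decile of mean value, which fall to -0.21 in decile 10, where the chaperone probe sets lie below the bar and the disulphide isomerases lie on both sides.

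Many chaperone promoters carry the endoplasmic reticulum stress element, ERSE (CCAAT, 9 bases of any kind, CCACG), or its shorter form ERSE-II (ATTGG, 1 base, CCACG), to which ATF6 and XBP1 are known to bind together with NF-Y. RefSeq promoter windows of assembly GRCm38.p6, running from 250 bases before to 50 bases after a gene's start, matched 29 of the 34 genes and were searched on both strands. An ERSE was found in 8 of the 29 genes, against 0.137% of 27025 genes with a window. An ERSE-II was found in 2 of the 29, against 0.0444% of all. The list was chosen to hold chaperone and stress response genes, so shares above those of all genes follow from that choice. The unfolded protein response element, searched as TGACGTGG (0.714% of all genes), and the ATF4 element, searched as TGATGCAAT (0.222% of all genes), were found in 0 of the 29. Only these exact letters were searched, so other forms of these elements and sites outside the window would be missed. The sequences below are those of the genes with an element that are also described here with every value. The letters of each element are in capitals, and CGTGG and ATTGG mark an ERSE on the opposite strand.
Hsp90b1, chr10:86705518-86705671, strand -: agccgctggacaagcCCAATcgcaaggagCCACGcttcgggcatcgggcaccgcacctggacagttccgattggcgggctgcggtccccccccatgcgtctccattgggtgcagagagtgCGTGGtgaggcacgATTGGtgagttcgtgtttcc
Hspa5, chr2:34772010-34772058, strand +: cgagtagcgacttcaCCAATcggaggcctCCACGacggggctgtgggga
Creld2, chr15:88819505-88819553, strand +: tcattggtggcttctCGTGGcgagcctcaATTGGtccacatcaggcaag
Dnajc3, chr14:118937812-118937860, strand +: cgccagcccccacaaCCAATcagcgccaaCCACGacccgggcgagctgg
Syvn1, chr19:6046517-6046565, strand +: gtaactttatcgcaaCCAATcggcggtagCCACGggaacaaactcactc
Herpud1, chr8:94386362-94386402, strand +: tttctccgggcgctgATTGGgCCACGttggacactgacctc
Dnajb11, chr16:22857837-22857877, strand +: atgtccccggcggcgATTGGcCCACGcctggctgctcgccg

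Hsp90b1 was the only one of the 10 genes with 2 copies of ERSE, which lay 212 to 194 and 107 to 89 bases before the start, on opposite strands. The element of Hspa5 lay 65 to 47 bases before the start. The ERSE-II of Dnajb11 lay after the start, at bases 8 to 18. Calr, Canx and Pdia6 also held an ERSE each. Of the 10 genes with either element, 8 were lower in the AKR cross, their median difference being -0.36, and Syvn1 (0.46) and Calr (0.081) lay higher. Of the 19 other genes with a window, 10 lay lower and 9 higher in AKR F1 tumours, with a median of -0.044. No test was made between these groups. Deciles 9 and 10 hold all of the 10 but Creld2, and there 73.2% of all probe sets were lower in AKR F1 tumours. After quantile normalization the 8 lower genes with an element ran from -1.01 (Hsp90b1) to -0.015 (Canx), with Pdia6 at -0.022 and Hspa5 at -0.10. Syvn1 (0.69) and Calr (0.30) then lay higher still.

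Hsp90b1 encodes the HSP90 chaperone of the endoplasmic reticulum, which folds integrins and Toll-like receptors. Its brightest probe set read 10.70, 9.63 and 10.18 in AKR F1 tumours, against 11.21, 11.61 and 11.46 in DBA F1 tumours. The crosses did not overlap, and the 3 AKR values were spread more widely (SD 0.53, against 0.21; n = 3 each). The log2 difference was -1.26 (SE 0.272, limma adjusted p = 0.0934), and it was -0.99 without AKR replicate 2. A further Hsp90b1 probe set of nearly the same level differed by -0.57, and by -0.31 without AKR replicate 2.

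Hspa5 encodes BiP, the HSP70 chaperone that also holds the stress sensors inactive. The brightest Hspa5 probe set read 12.78, 12.23 and 12.74 in AKR F1 tumours, against 12.86, 12.82 and 13.02 in DBA F1 tumours, and the crosses lay close together without overlap. Its log2 difference was -0.31 (SE 0.177, limma adjusted p = 0.27). Without AKR replicate 2 it was -0.14. The other Hspa5 probe set gave 11.24, 10.39 and 11.04 in AKR F1 tumours, against 11.56, 11.54 and 11.74 in DBA F1 tumours, a difference of -0.72.

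Creld2, a disulphide isomerase-like protein induced under stress, read 9.19, 8.73 and 8.89 in AKR F1 tumours, against 9.55, 9.30 and 9.55 in DBA F1 tumours. The crosses did not overlap, and the log2 difference was -0.53 (SE 0.158, limma adjusted p = 0.128). Manf, a secreted cofactor of BiP, read 10.68, 9.78 and 10.35 in AKR F1 tumours, against 10.84, 10.73 and 11.04 in DBA F1 tumours, with AKR replicate 1 close to the DBA values. Its difference was -0.60 (limma adjusted p = 0.178), and -0.35 without AKR replicate 2.

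The J-domain proteins deliver clients to BiP. Dnajb11 read 10.18, 9.98 and 9.96 in AKR F1 tumours, against 10.52, 10.23 and 10.60 in DBA F1 tumours, a 1.33-fold difference (limma adjusted p = 0.156). Dnajc3, which also restrains the kinase PERK, read 9.60, 9.43 and 9.37 in AKR F1 tumours, against 9.98, 9.63 and 10.22 in DBA F1 tumours (1.39-fold, limma adjusted p = 0.162). For both genes the crosses did not overlap, and DBA replicate 2 lay nearest to the AKR values. All 5 probe sets of Dnajc3 lay lower in AKR F1 tumours, by 0.23 to 0.79 on the log2 scale. Dnajb9, which represses IRE1, differed by -0.34 with overlapping values, and by -0.13 without AKR replicate 2.

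A pair of chaperone cofactor genes went the other way. Sdf2l1 acts with Dnajb11 on BiP clients. It read 10.20, 9.43 and 9.72 in AKR F1 tumours, against 9.37, 9.13 and 8.96 in DBA F1 tumours, and the crosses did not overlap. The log2 difference of Sdf2l1 was 0.63 (SE 0.219, limma adjusted p = 0.152). Hyou1, the large HSP70 relative that exchanges nucleotide on BiP, differed by 0.18 at its brightest probe set with overlapping values. At its dimmest probe set, with means of 5.93 in AKR F1 tumours, against 5.17 in DBA F1 tumours, Hyou1 differed by 0.76 (limma adjusted p = 0.102). Of the 9 genes of this system, 6 did not overlap with DBA F1 tumours higher and 1 with AKR F1 tumours higher. Among all probe sets of deciles 9 and 10 these shares were 29.8% and 7.29%. Creld2 lies outside them, in decile 8, where the shares were 24.0% and 12.8%. After quantile normalization or cyclic loess, 2 of the 9 did not overlap with DBA F1 tumours higher, Hsp90b1 and Creld2. Of all probe sets, 13.5% or 16.1% did so under these scalings. These shares are over all levels and, unlike those of deciles 9 and 10, are not matched to the level of the genes. The median difference of the 9 genes was then -0.16 or -0.20.

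**Figure D2:**
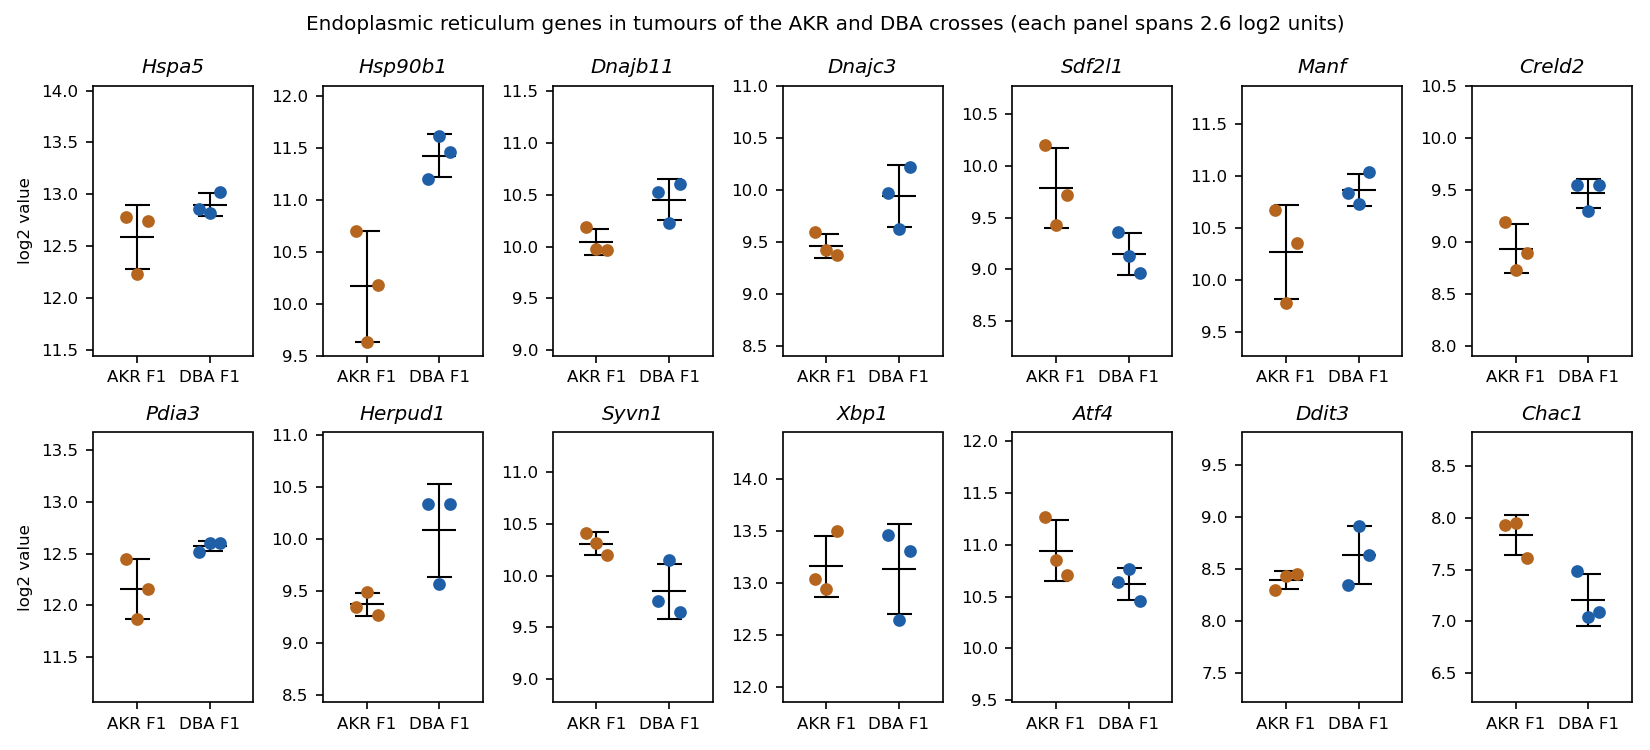
Log2 values of the 14 genes described with every value, at their brightest probe sets, with AKR F1 tumours on the left and DBA F1 tumours on the right of each panel. Points are arrays, and bars are the mean and SD of 3 arrays. Hsp90b1, Creld2, Manf and Herpud1 lie lower in AKR F1 tumours, Sdf2l1, Syvn1 and Chac1 lie higher, and Xbp1 and Ddit3 overlap.

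Lectin chaperones and disulphide isomerases were split. Calnexin (Canx) and calreticulin (Calr) hold glycoproteins until they fold, and differed by -0.26 and 0.081 with overlapping values. The isomerase Pdia3, their partner, read 12.45, 11.87 and 12.16 in AKR F1 tumours, against 12.51, 12.60 and 12.60 in DBA F1 tumours. The crosses did not overlap for Pdia3, but AKR replicate 1 was close to the DBA values, and the difference was -0.41 (limma adjusted p = 0.182). Pdia6 differed by -0.28 (0.022 at a dimmer probe set), and Pdia4 (0.48) and P4hb (0.22) lay higher in AKR F1 tumours, all with overlapping values. Of these 6 genes, 3 lay higher and 3 lower in AKR F1 tumours. Without AKR replicate 2 the difference was -0.065 for Canx, -0.27 for Pdia3 and -0.12 for Pdia6.

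Of the 6 genes of degradation from the endoplasmic reticulum, 5 were lower in the AKR cross, with a median of -0.24, and 3 were after quantile normalization or cyclic loess. Herpud1, a stress-induced scaffold of the degradation complex, read 9.35, 9.49 and 9.27 in AKR F1 tumours, against 10.34, 9.57 and 10.34 in DBA F1 tumours. DBA replicates 1 and 3 were equal to 2 decimals, while DBA replicate 2 lay just above the AKR values. The log2 difference of Herpud1 was -0.71 (SE 0.227, limma adjusted p = 0.138), and it was -0.97 without DBA replicate 2. A further Herpud1 probe set of similar level differed by -0.29 with overlapping values (limma adjusted p = 0.279). Syvn1, which encodes the ligase HRD1 of the same complex, read 10.41, 10.31 and 10.19 in AKR F1 tumours, against 9.75, 10.15 and 9.64 in DBA F1 tumours. It thus lay higher in AKR F1 tumours without overlap (0.46, SE 0.163, limma adjusted p = 0.158), and DBA replicate 2 was again nearest to the AKR values. Edem1, a lectin that passes misfolded glycoproteins on, differed by -0.34 without overlap. The derlin genes Derl2 (-0.34) and Derl1 (-0.14) and the adaptor gene Sel1l (-0.044) overlapped, and 2 dimmer probe sets of Sel1l differed by 0.097 and 0.30.

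**Figure D3:**
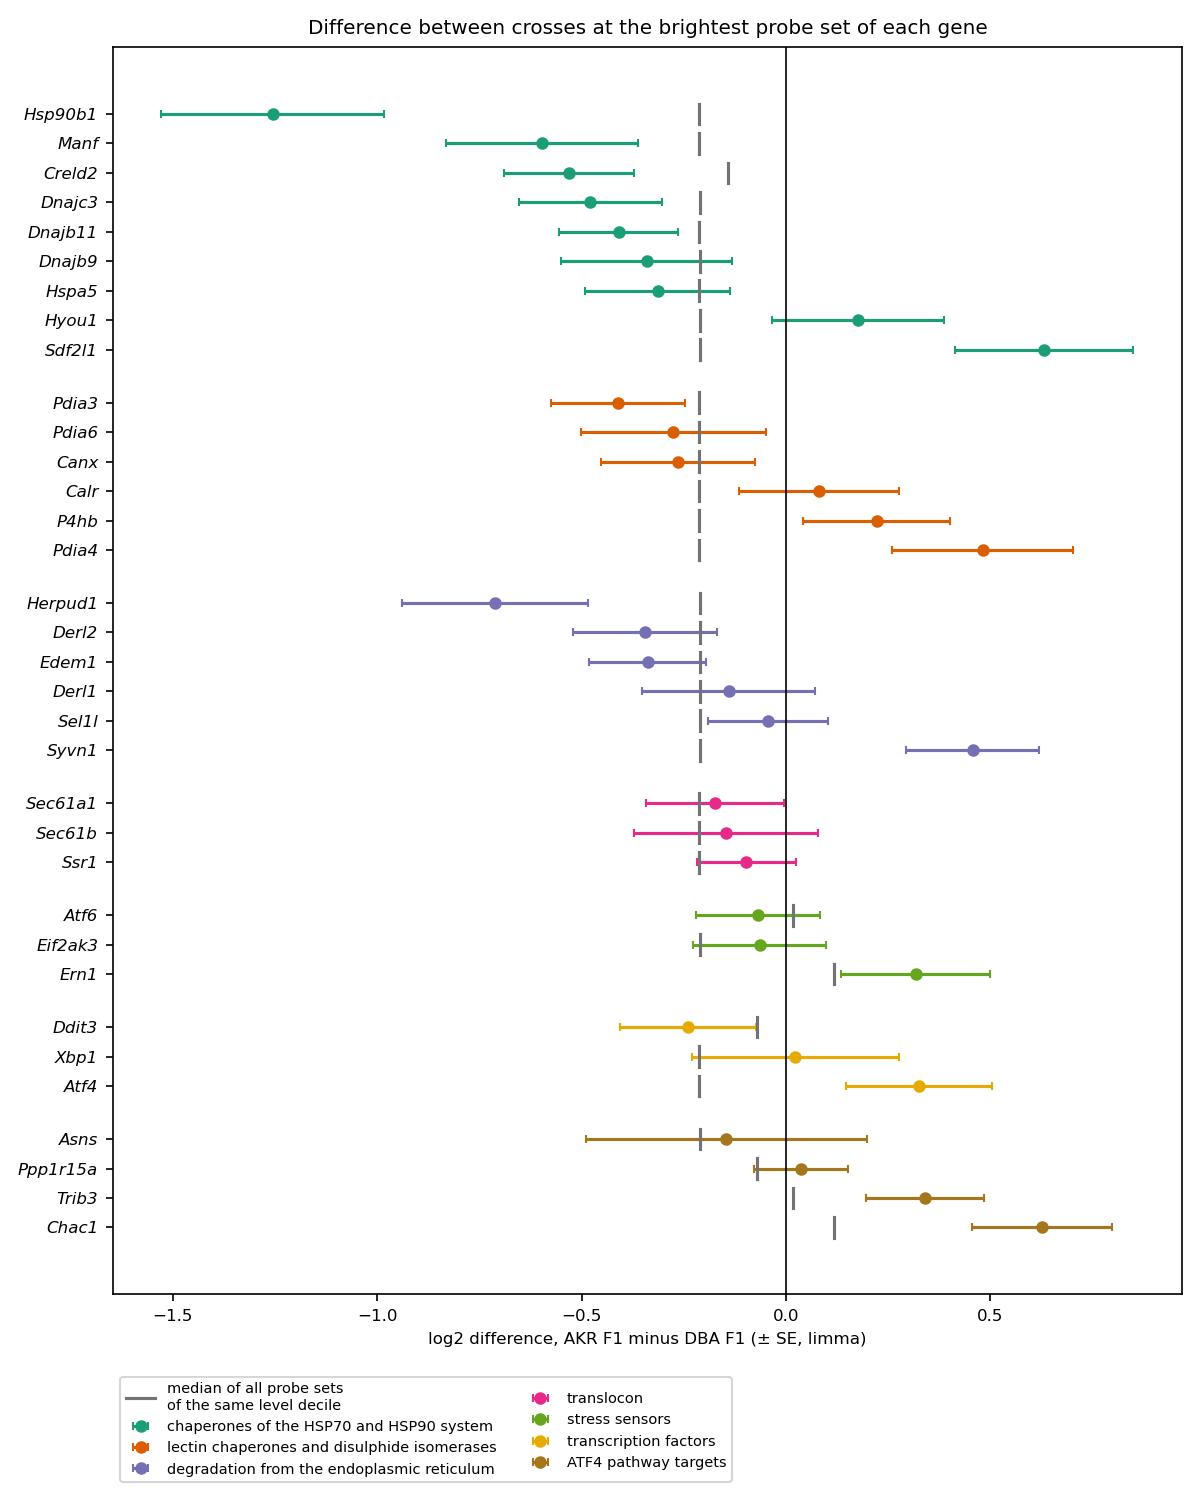
Log2 difference (AKR F1 minus DBA F1, ± SE from limma, 3 arrays per cross) of each of the 34 genes at its brightest probe set, grouped by role. Grey ticks are the median of all probe sets in the same decile of mean value. Hsp90b1 (-1.26) lies furthest to the left, and Sdf2l1 (0.63) and Chac1 (0.63) furthest to the right.

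Translocon genes differed little at their brightest probe sets, with -0.17 for the channel gene Sec61a1, -0.15 for its small subunit Sec61b and -0.098 for Ssr1 of the associated TRAP complex, and all 3 lay higher in AKR F1 tumours after quantile normalization or cyclic loess. The 6 probe sets of Sec61a1 disagreed. Probe set 1416191_at read 10.94, 10.06 and 10.16 in AKR F1 tumours, against 8.003, 9.69 and 8.18 in DBA F1 tumours, a difference of 1.76 (SE 0.473, limma adjusted p = 0.116). Probe set 1416190_a_at had the arrays in the same order, at 9.17, 8.31 and 8.62 in AKR F1 tumours, against 6.83, 8.17 and 6.92 in DBA F1 tumours (1.39, limma adjusted p = 0.122). At both, DBA replicates 1 and 3 were low and DBA replicate 2 was near the AKR arrays. Without DBA replicate 2 the differences of these 2 probe sets were 2.30 (limma adjusted p = 0.07) and 1.82 (limma adjusted p = 0.085). The other 4 Sec61a1 probe sets differed by -0.20 to 0.30. A dimmer probe set of Ssr1 differed by -0.54 (limma adjusted p = 0.116), and the other by 0.20.

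**Figure D4:**
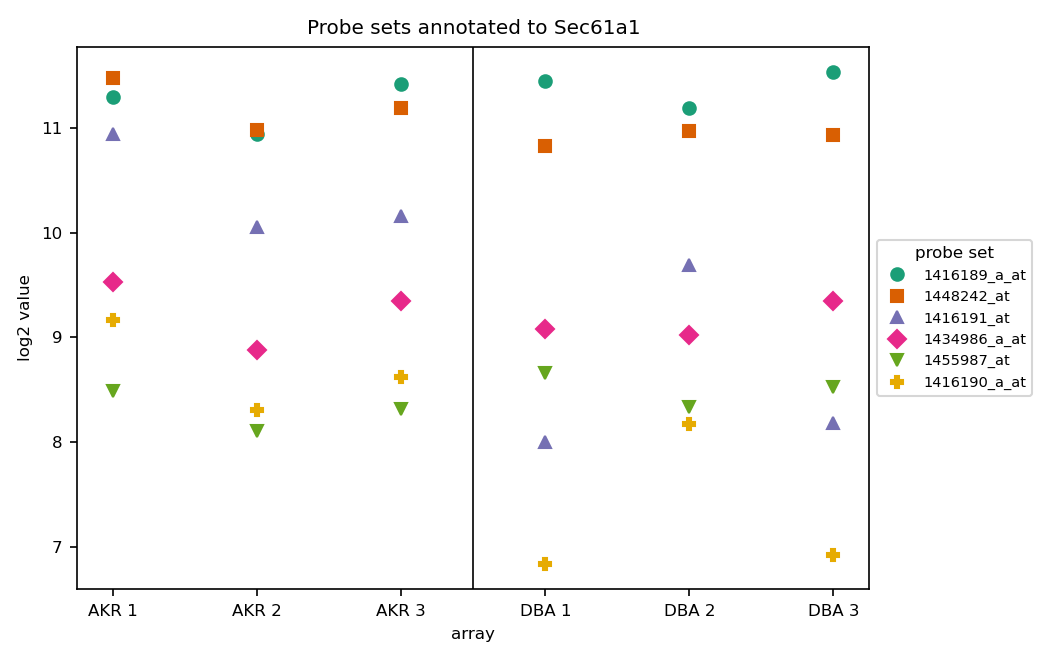
Log2 values of the 6 probe sets annotated to Sec61a1 on each array, AKR F1 tumours on the left and DBA F1 tumours on the right. Probe sets 1416191_at and 1416190_a_at drop on DBA replicates 1 and 3 and not on DBA replicate 2, while the other 4 stay within 1 log2 unit over the arrays.

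The stress sensors differed little. Eif2ak3, which encodes PERK, differed by -0.065 and Atf6 by -0.068, both with overlapping values. Dimmer probe sets of Eif2ak3 differed by 0.44 and 0.26. Ern1, which encodes IRE1, read 7.12, 7.69 and 7.11 in AKR F1 tumours, against 6.999, 7.07 and 6.90 in DBA F1 tumours. The difference was 0.32 (limma adjusted p = 0.279), with AKR replicate 2 highest and the others close together, though without overlap. Without AKR replicate 2 the difference of Ern1 was 0.13. Its 2 other probe sets differed by 0.27 and 0.28, and by 0.11 and 0.15 without AKR replicate 2. Both lay in decile 2, where the median difference of all probe sets was 0.23.

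The transcription factors of the response overlapped between the crosses at their brightest probe sets. Xbp1 read 13.04, 12.95 and 13.50 in AKR F1 tumours, against 13.46, 12.65 and 13.31 in DBA F1 tumours, and its spliced and unspliced RNA were not told apart. DBA replicate 2 was the lowest array for Xbp1, and 2 of 8 milk genes, Csn1s1 and Csn2, were lowest there too. Csn3, Btn1a1, Xdh and Muc1 were lowest on AKR replicate 2, and Wap and Lalba on DBA replicate 3. A link between Xbp1 and the milk genes was not tested. The casein gene Csn2 read 13.88, 10.96 and 13.27 in AKR F1 tumours, against 13.58, 6.47 and 12.73 in DBA F1 tumours. Atf4, the factor translated when PERK is active, read 11.27, 10.85 and 10.71 in AKR F1 tumours, against 10.64, 10.76 and 10.45 in DBA F1 tumours (0.32, limma adjusted p = 0.262). Ddit3, which encodes the cell death factor CHOP, read 8.30, 8.43 and 8.46 in AKR F1 tumours, against 8.35, 8.91 and 8.64 in DBA F1 tumours (-0.24, limma adjusted p = 0.346). Leaving out DBA replicate 2 gave -0.10 for Ddit3, and leaving out AKR replicate 1 gave 0.16 for Atf4. A dim Atf4 probe set differed by 1.19, and read 7.69 on AKR replicate 2, against 5.20 to 6.15 on the other arrays. Another Atf4 probe set differed by -0.016. Dimmer Xbp1 probe sets differed by 0.53 and -0.20.

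Of the 4 ATF4 targets among the 34 genes, Chac1 had the smallest p. It read 7.93, 7.95 and 7.61 in AKR F1 tumours, against 7.49, 7.04 and 7.09 in DBA F1 tumours, without overlap. The log2 difference of Chac1 was 0.63 (SE 0.171, limma adjusted p = 0.119). Trib3, a pseudokinase that dampens the response, also did not overlap (0.34, limma adjusted p = 0.195). The phosphatase subunit gene Ppp1r15a (0.037) and asparagine synthetase (Asns, -0.15) overlapped. Asns was low on AKR replicate 2 and DBA replicate 2, at 9.28 and 9.36, and 9.90 to 10.54 on the other 4 arrays.

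Across the 34 genes, AKR replicate 2 was the lowest array for 19 and DBA replicate 3 the highest for 10. The mean of the 34 genes was 10.29, 9.90 and 10.15 on the AKR arrays, against 10.25, 10.15 and 10.26 on the DBA arrays, so the crosses overlapped. The difference of these means was -0.11, and -0.0040 without AKR replicate 2. For the 9 genes of the HSP70 and HSP90 system the mean was 10.36, 9.77 and 10.15 on the AKR arrays, against 10.44, 10.39 and 10.49 on the DBA arrays. These means did not overlap, but AKR replicate 1 lay just below DBA replicate 2. The separation rested on Hsp90b1, which read 10.70 on AKR replicate 1 and 11.61 on DBA replicate 2. Leaving Hsp90b1 out puts AKR replicate 1 above DBA replicate 2, so the crosses then overlap. Without AKR replicate 2 the median difference of these 9 genes was -0.35, with the same 7 genes lower in AKR F1 tumours. Among the 34 genes, 18 then lay lower in AKR F1 tumours, against 22 with all arrays and 15 after quantile normalization or cyclic loess.

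**Figure D5:**
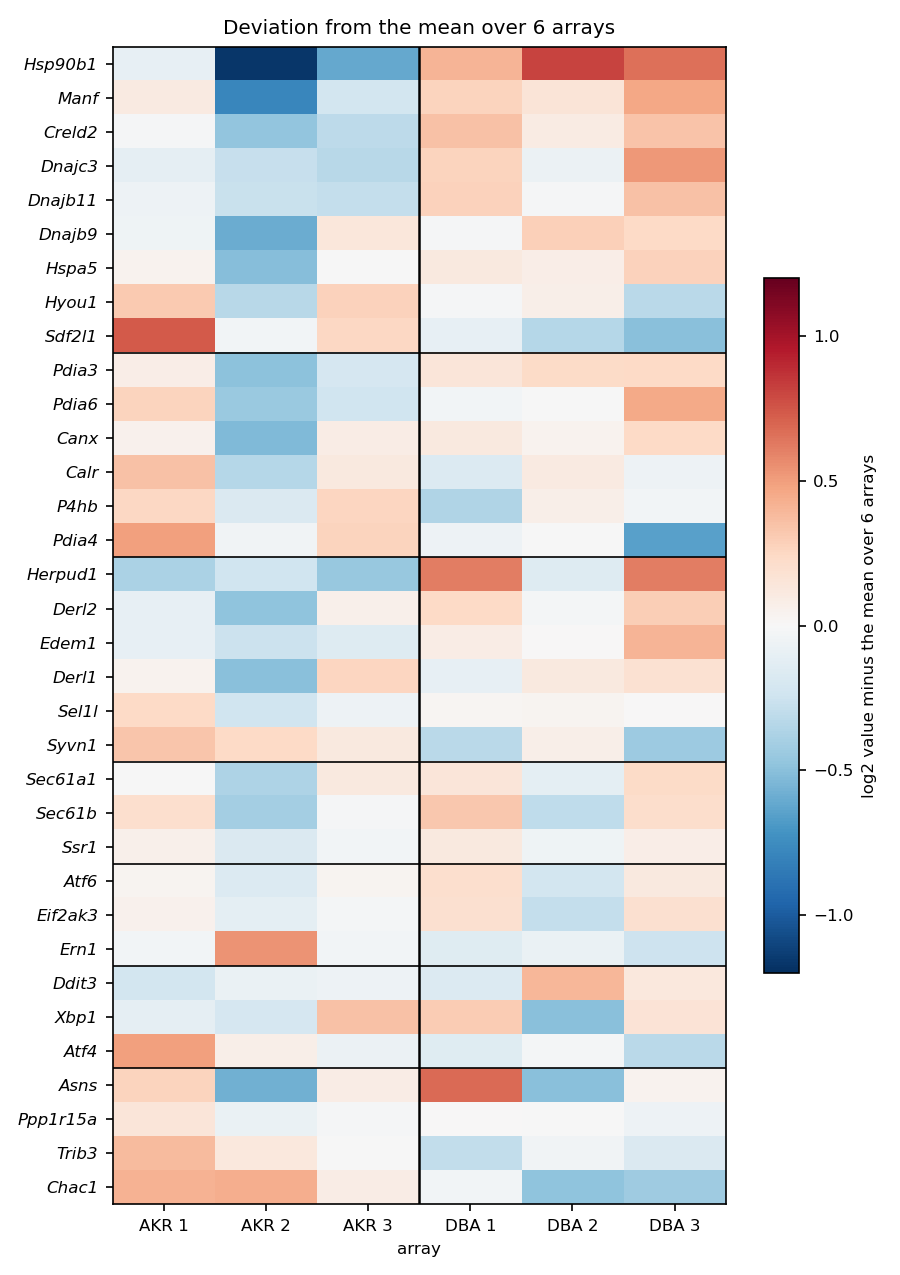
Log2 value of each of the 34 genes minus its mean over the 6 arrays, AKR F1 tumours on the left and DBA F1 tumours on the right, in blocks by role. Blue is lower and red higher. AKR replicate 2 is the lowest array for 19 genes, and the upper block has 7 genes that are lower in AKR F1 tumours.

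Markers of other cell types and states were set beside these patterns. The mean of 9 plasma and B cell markers, cells rich in this machinery, was 6.65, 6.64 and 6.63 on the AKR arrays, against 7.37, 6.94 and 7.13 on the DBA arrays. Of these 9 markers, 4 lay higher and 5 lower in the AKR cross (median difference -0.18). The means without Pou2af1, the marker that differed most, were 6.86, 6.81 and 6.82 on the AKR arrays, against 7.46, 6.54 and 6.99 on the DBA arrays, which overlap. Pou2af1 was highest on DBA replicate 2 (10.09), and the plasma cell gene Jchain was low there (5.69, against 8.66 and 8.29 on the other DBA arrays). Basal and smooth muscle markers had means of 8.09, 8.33 and 7.92 on the AKR arrays, against 7.94, 9.14 and 9.34 on the DBA arrays, and 6 of 9 lay lower in AKR F1 tumours under each scaling (median -1.23). Of these, Acta2 (-2.06) and Mylk (-1.97) differed most, while the keratin genes Krt5 (0.99) and Krt14 (0.71) lay higher. Of 10 macrophage markers, 7 lay lower in AKR F1 tumours, and 5 did without AKR replicate 2. Of 16 hypoxia and glycolysis genes, 15 lay lower in AKR F1 tumours, under each scaling tried, with array means of 9.80, 9.33 and 9.66 in AKR F1 tumours, against 9.93, 10.94 and 9.998 in DBA F1 tumours. The mean of 8 milk genes was 12.45, 10.85 and 11.96 on the AKR arrays, against 12.31, 10.36 and 11.35 on the DBA arrays. In bulk tumours, fewer cells of a type and less RNA per cell cannot be told apart, and the part of these cell types in the differences was not tested.

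Among 124 other genes of the pathway in 5 lists, 0 passed an adjusted p of 0.05 by limma, and 36 had an unadjusted p under 0.05. These were 10 genes higher in AKR F1 tumours (8.06%, against 12.9% of all probe sets) and 26 higher in DBA F1 tumours (21.0%, against 13.2%). The shares of all probe sets are over all levels and were not matched to the levels of these genes. In deciles 9 and 10, 73.2% of all probe sets were higher in DBA F1 tumours. In oxidative folding and other chaperones, 21 of 28 measured genes lay lower in AKR F1 tumours (median -0.24; 18 of 28 after quantile normalization). Ero1a, the oxidase that recharges disulphide isomerases, read 9.57, 8.93 and 9.35 in AKR F1 tumours, against 10.09, 11.29 and 10.15 in DBA F1 tumours, and was highest on the array with the highest hypoxia markers. The prolyl isomerase Fkbp7 (-1.28, limma adjusted p = 0.093) and the calcium-binding Sdf4 (-0.59, limma adjusted p = 0.093) also lay lower in AKR F1 tumours, and the isomerase Txndc5 lay higher (0.60). Of 25 genes of translocation, signal peptidase and oligosaccharide transfer, 23 lay lower in AKR F1 tumours (median -0.22, close to the median of decile 10), but 11 did after quantile normalization. Among those with the smallest p were Sec61a2 (-0.91), the signal peptidase gene Spcs1 (-0.51), Srp9 (-0.53) and Stt3a (-0.60).

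In the remaining lists both directions were common, and the list medians were above 0 after quantile normalization or cyclic loess. Of 19 further degradation genes, 12 lay lower in AKR F1 tumours (median -0.11). Derl3, a derlin of secretory cells, lay higher in AKR F1 tumours without overlap (0.66, limma adjusted p = 0.092), as did the EDEM family gene Edem2 (0.46) and the mannosidase Man1b1 (0.41), while Ufd1 lay lower (-0.44). Of 20 sensors and regulators, 13 lay lower (median -0.068), including Creb3l2 (-0.57), Creb3 (-0.53) and the interferon-induced kinase Eif2ak2 (-0.62), whereas the cell death gene Bak1 differed by 0.74 with overlapping values. Of 32 genes of the ATF4 and amino acid response, 20 lay lower (median -0.082). The serine synthesis enzyme Phgdh (0.83) and the mitochondrial Shmt2 (0.64, limma adjusted p = 0.1) lay higher in AKR F1 tumours, and the threonyl-tRNA synthetase Tars (-0.55) and the transporter subunit Slc3a2 (-0.57) lay lower.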

How the data were processed

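Total RNA from snap-frozen tumours was labelled with biotin and measured on 1-colour Affymetrix arrays, per the labels' protocols. The groups came from the source names in the labels, and replicate numbers only name samples, in the order of deposit. The deposited values are on a log2 scale, as read from their range. The submitters' processing notes name MAS5 and RMA without saying which one gave the deposited log2 values. Detection calls were not applied, so dim probe sets can lie at background and their differences can be compressed.

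The 64 control probe sets were left out. The deposited log2 values of the other 22626 were fitted with limma 3.58.1 in R 4.3.3, as AKR minus DBA with no covariate, and p-values were adjusted by Benjamini-Hochberg over all of them. Negative differences are higher in DBA F1 tumours. Symbols came from the platform annotation, and probe sets with several symbols were left out of gene counts. The fit was tested on simulated data. No 2 arrays held identical values (Pearson correlations 0.915 to 0.991).

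Each gene was taken at its probe set of highest mean over the 6 arrays. Its other probe sets were named where their sign was opposite or they differed by over 0.5, and for a few other genes, such as Herpud1. Values on every array were given for the 10 genes with the smallest p and for Hspa5, Xbp1, Atf4 and Ddit3, and up to 4 genes with the smallest p were named in each of 5 pathway lists. Sec61a1 probe sets, Ern1, Asns, the second probe sets of Hspa5 and Ero1a were given by array after their values were seen. The marker means without Pou2af1 and the single markers named were also chosen then. The members and lists were chosen with earlier results of these data known. Alternatives were other scalings, a filter on dim probe sets, another prior, array weights (estimated gene by gene), gene means, another threshold and leaving out each array. A planned search of protein sequences was not run. Promoters were searched with Python 3.11.15.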

Additional observations from a re-analysis of the deposited data

How the results depend on the processing

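The number of probe sets past an adjusted p of 0.05 in limma was 22, and it was 36 after quantile normalization, 34 after cyclic loess, 102 among probe sets brighter than the median, 3712 with array weights, 1 with gene means, 810 at a threshold of 0.10, and 1 to 263 when 1 array was left out. The 263 were reached without DBA replicate 1. Of the 75 endoplasmic reticulum probe sets, 12 passed with array weights, 1 at 0.10 and 0 under the other settings. Hsp90b1 had the smallest adjusted p among them in the main setting (0.0934), with 0.102 to 0.374 when 1 array was left out. The median difference of the 34 genes was 0.066 after quantile normalization and 0.053 after cyclic loess, against -0.14, and the median of the 9 chaperone genes was -0.16 after quantile normalization. The difference of the mean level of the genes was 0.083 and 0.057 under these scalings, against -0.11, and it ran from -0.19 without AKR replicate 1 to -0.0040 without AKR replicate 2. With probe sets brighter than the median alone, the median of all differences was -0.14, against 0.049. Restricted to the 200 bases before the start, ERSE-II was found in 1 gene. Of the 34 genes, 23 kept their direction under every setting that held them and 11 did not; Ern1 and Chac1, among the 23, fall outside the filter on brighter probe sets, which holds 32 genes. After quantile normalization and cyclic loess, the differences were 0.18 and 0.16 for Sel1l, 0.059 and 0.050 for Derl1, 0.10 and 0.039 for Sec61a1, 0.059 and 0.062 for Sec61b, 0.17 and 0.12 for Ssr1, 0.15 and 0.13 for Eif2ak3, and 0.074 and 0.055 for Asns. Array weights turned Sel1l (0.099), Asns (0.068) and Xbp1 (-0.034), centring turned Xbp1 (-0.00070), and gene means turned Sel1l (0.043), Sec61a1 (0.53) and Eif2ak3 (0.21). With 1 array left out, the differences ran from -0.072 to 0.27 for Calr, -0.17 to 0.065 for Sel1l, -0.30 to 0.076 for Derl1, -0.34 to 0.019 for Sec61b, -0.22 to 0.015 for Eif2ak3, -0.20 to 0.017 for Atf6, -0.22 to 0.18 for Xbp1, -0.026 to 0.084 for Ppp1r15a and -0.43 to 0.16 for Asns. The cause of these changes was not tested. No paired analysis was possible because the labels give the samples of the crosses no shared replicate numbers.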
